A study of Mus musculus with 12 samples.

Results

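Trophectoderm is the outer epithelium of the blastocyst, which goes on to form the placenta. Described here are the SOX2 binding regions around 9 transcription regulator genes of trophectoderm or its trophoblast descendants, in mouse embryonic stem cells. The genes, Cdx2, Tfap2c, Gata2, Gata3, Tead4, Id2, Eomes, Elf5 and Hand1, were taken as a list from 21887 protein-coding genes. A region was assigned to a gene when its midpoint lay within 100 kb of the gene's RefSeq span on mm10. By this rule 26 of 10351 regions from asynchronous cells (0.251%) and 1 of 84 regions from mitotic cells were assigned, none of them to more than 1 of the genes.

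SOX2 was mapped by chromatin immunoprecipitation and sequencing (ChIP-seq) with the antibody Y-17 in E14, an established mouse embryonic stem cell line, so that every library comes from this single line. Asynchronous and mitotic cells each had 3 SOX2 ChIP libraries and 3 input libraries. All cells grew in 10% serum with leukemia inhibitory factor, 3 μM CHIR99021 (a GSK3 inhibitor) and 0.8 μM PD184352 (a MEK inhibitor), and the mitotic cells were additionally held overnight in nocodazole, a microtubule poison, then fixed and sorted as H3S10p-positive. Arrest and sorting therefore came with the mitotic group and cannot be told apart from mitosis itself. Each condition has a single list for its 3 replicates, read here as called on the pooled replicates, with a position and a name per region. There is no value per library, so that counts and widths carry no replicate error and no difference was tested. Sequencing depth is unknown. The mitotic list carries the looser q-value tag (0.05, against 0.01 for the asynchronous list).

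In the blastocyst, the Hippo pathway keeps YAP out of the nucleus of inner cells, and in outer cells YAP binds TEAD4, which switches on Cdx2 and Gata3. CDX2 represses Pou5f1, while SOX2, POU5F1 and NANOG maintain the inner cell mass and the stem cells derived from it. SOX2 is also required by trophoblast stem cells, where Eomes, Elf5 and Tfap2c are active. Embryonic stem cells normally do not run the trophectoderm programme as a whole, which does not make every gene listed above silent in them. Expression was not measured here, so which of these genes were active in the cells used is not known.

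The promoters below belong to Cdx2, Id2 and Gata3, which had a region inside or within 10 kb, and to Elf5, chosen because its promoter held a SOX core. RefSeq promoter windows on GRCm38.p6, the assembly named mm10, were matched for 6 of the 9 genes (8 windows, since Gata2 and Elf5 have more than 1 start), and not for Tfap2c, Tead4 and Hand1. No asynchronous region overlapped any of them, so the sequences under the regions themselves are not shown. Each sequence is the 250 bases before the start, written 5′ to 3′ on the gene's strand. Capitals mark matches, on either strand, to CATTGT, a core of the SOX motif, or ATGCAAA, a core of the octamer motif bound by POU factors such as POU5F1.

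Cdx2 (chr5:147307250-147307499, minus strand): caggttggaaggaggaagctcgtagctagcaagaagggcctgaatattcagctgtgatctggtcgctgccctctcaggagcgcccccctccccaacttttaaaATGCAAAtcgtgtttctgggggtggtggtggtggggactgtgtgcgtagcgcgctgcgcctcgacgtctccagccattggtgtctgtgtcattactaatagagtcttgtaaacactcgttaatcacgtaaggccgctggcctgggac

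Id2 (chr12:25096093-25096342, minus strand): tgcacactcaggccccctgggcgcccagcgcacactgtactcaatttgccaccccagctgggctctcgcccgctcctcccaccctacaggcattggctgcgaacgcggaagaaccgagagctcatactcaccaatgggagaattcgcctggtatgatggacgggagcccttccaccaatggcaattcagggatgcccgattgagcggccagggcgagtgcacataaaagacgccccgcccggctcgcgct

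Gata3 (chr2:9878601-9878850, minus strand): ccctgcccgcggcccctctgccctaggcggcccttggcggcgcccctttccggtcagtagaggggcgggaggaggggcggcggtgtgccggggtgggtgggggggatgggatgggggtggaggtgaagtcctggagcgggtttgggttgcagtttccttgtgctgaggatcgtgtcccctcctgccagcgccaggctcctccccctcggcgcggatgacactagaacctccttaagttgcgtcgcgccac

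Elf5 (chr2:103411848-103412097, plus strand): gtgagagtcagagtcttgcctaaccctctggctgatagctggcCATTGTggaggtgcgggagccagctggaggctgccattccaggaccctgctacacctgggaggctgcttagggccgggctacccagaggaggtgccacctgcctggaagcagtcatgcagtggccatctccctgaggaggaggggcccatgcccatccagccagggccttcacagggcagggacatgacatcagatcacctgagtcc

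Cdx2 was the only gene of the 6 with the octamer core, starting 147 bases before its start, and Elf5 the only one with the SOX core, 207 bases before. Of 32851 promoter windows of the same length, 4.12% held ATGCAAA and 10.7% held CATTGT. The Cdx2 window lay 2.00 kb from the nearest asynchronous region, the Id2 window 2.52 kb, the Gata3 window 4.06 kb and the Elf5 window 63.5 kb.

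All 9 genes had at least 1 asynchronous region within 100 kb, where 62.4% of all protein-coding genes did. Their counts ran from 1 to 7 with a median of 2, against a median of 1 (quartiles 0 and 2) over all protein-coding genes. At least 2 regions were found for 7 of the 9 (33.7% of all genes), at least 3 for 4 (16.9%), at least 5 for 2 (3.78%) and at least 7 for 1 (0.800%). Because a long gene has a longer window, the counts were also taken per Mb of window. The median was then 9.83 regions per Mb, against 4.45 over all protein-coding genes, and 8 of the 9 genes lay above that value, with Elf5 (4.19 per Mb) below it. The list of 9 was drawn up with results of these data known, and its counts are a description.

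**Figure D1:**
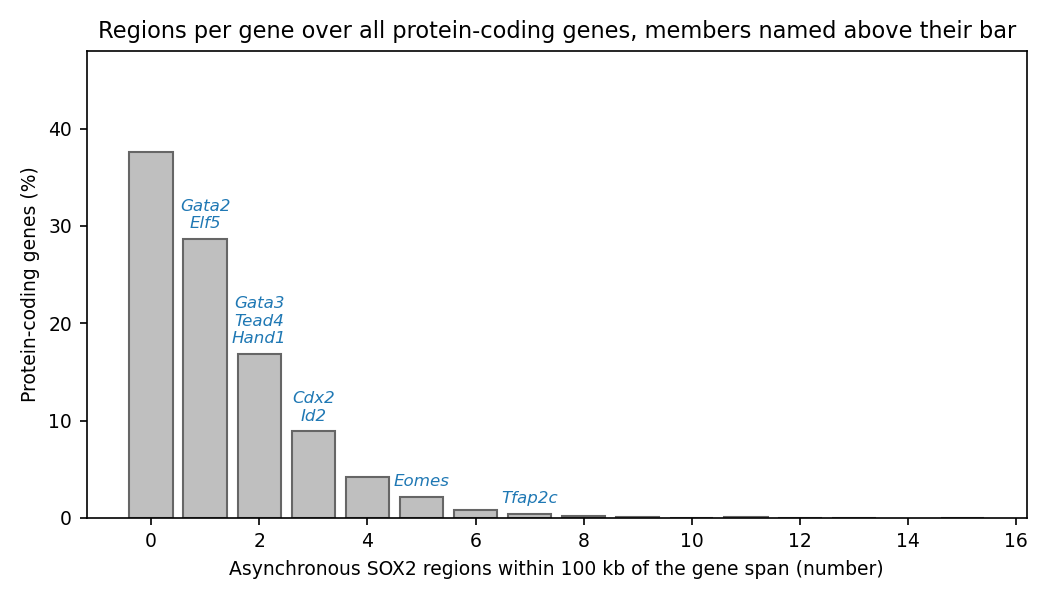
Share of all protein-coding genes (vertical axis, %) by the number of asynchronous SOX2 regions within 100 kb of the gene span (horizontal axis), with the 9 trophectoderm genes named above the bar of their count. No trophectoderm gene stands at 0, and Eomes (5) and Tfap2c (7) stand in the thin right tail.

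Most of the regions lay outside the genes, as does most of each window. The spans, from 2.29 kb (Id2) to 73.7 kb (Tead4), stand in windows of 202 to 274 kb. The positions are therefore a description, and a preference for distance from the genes was not tested. Of the 26, 2 had their midpoint inside the gene, in Cdx2 and Gata3, and 5 lay inside or within 10 kb. A further 11 lay 10 to 50 kb away and 10 lay 50 to 100 kb away. Within 10 kb, 4 of the 9 genes had a region (23.8% of all genes), within 50 kb 7 had (45.5%), and at 200 kb, where all 9 had a region, so did 79.8% of all genes. Inside the span, 2 of 9 had a region (14.7% of all genes). The distance to the nearest region had a median of 15.1 kb for the 9 genes and 62.0 kb for all protein-coding genes. Among the 13 regions outside the 6 genes whose strand the promoter table gives, 8 lay upstream and 5 downstream.

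**Figure D2:**
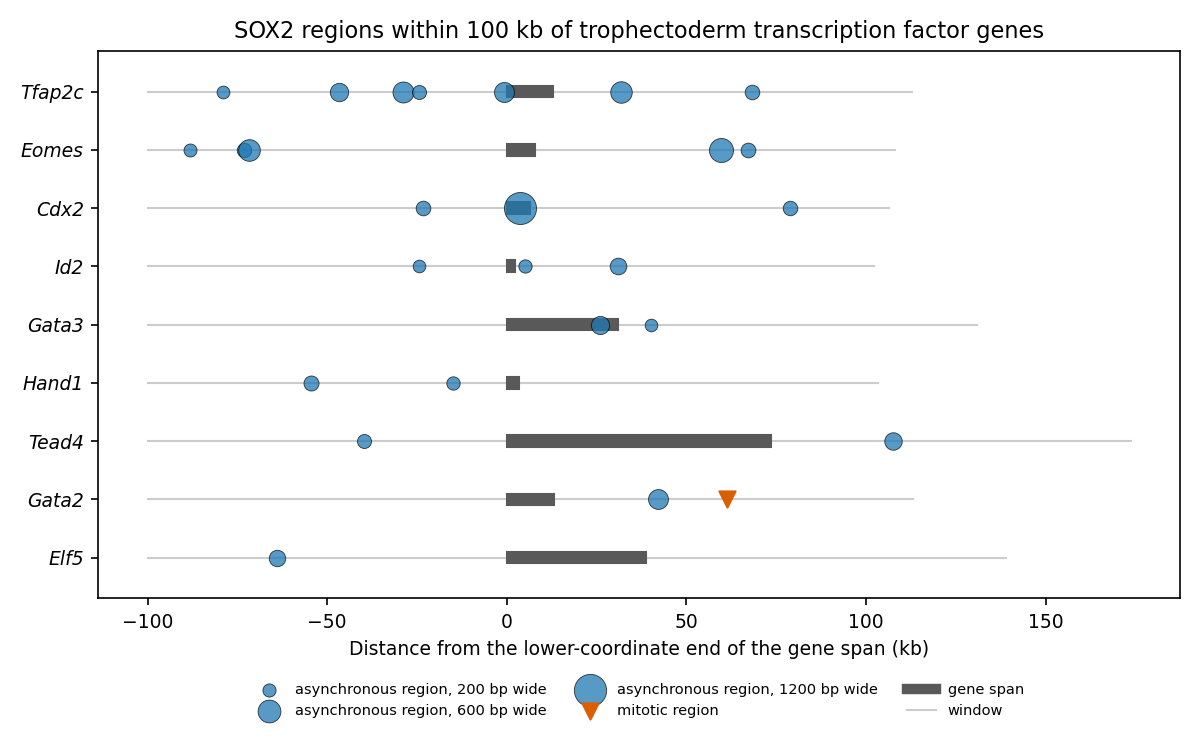
SOX2 regions along the windows of the 9 genes, as distance in kb from the lower-coordinate end of each gene span; gray bars are genes, circles are asynchronous regions with an area proportional to width, and the triangle is the mitotic region. Regions lie on both sides of Tfap2c and Eomes, a large circle sits inside Cdx2, and the only triangle is in the Gata2 window.

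**Figure D3:**
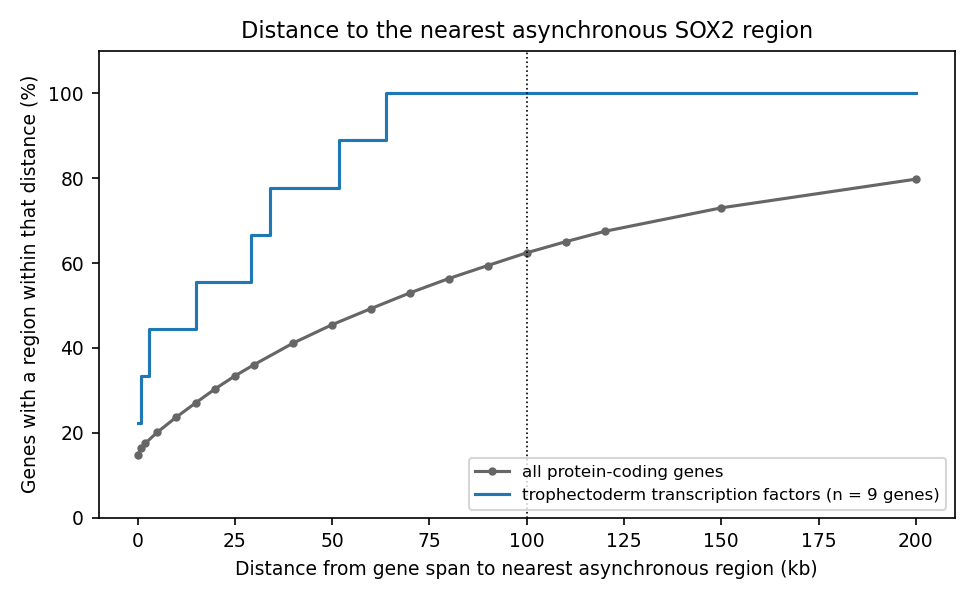
Share of genes (vertical axis, %) with an asynchronous region within a given distance of the gene span (horizontal axis, kb), for the 9 trophectoderm genes (stepped line) and all protein-coding genes (points). The stepped line reaches all 9 genes at 63.9 kb, before the dotted 100 kb limit, where all genes reach 62.4%.

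Tead4, whose product carries YAP to DNA and stands at the head of the trophectoderm programme, had 2 asynchronous regions and none inside its 73.7 kb span (chr6:128227143-128300813). The nearer lay 34.0 kb beyond the higher-coordinate end, at chr6:128334619-128334970, inside the neighbouring gene Tulp3. It was 352 bp wide. The other, chr6:128187182-128187408, lay 39.8 kb from the opposite end, had Tead4 as its nearest protein-coding gene and was 227 bp wide, and it lay inside the annotated pseudogene Gm18609. The window was the most crowded of the 9, with 6 other protein-coding genes reaching into it. Its density of 7.31 regions per Mb was matched or exceeded by 29.7% of all genes.

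Cdx2, the homeobox factor that specifies trophectoderm and represses Pou5f1, had 3 asynchronous regions and the widest region of the 26. That region, chr5:147304062-147305247, spanned 1186 bp, held 2 listed entries and ranked 2 by width among all 10351. It covered 18.7% of the gene (chr5:147300900-147307249). Its edges lay 2.00 and 3.19 kb downstream of the gene's start, within the gene body and 3.16 kb short of the far end. It was 4.10 times as wide as the median asynchronous region (289 bp), and the next narrower width in the list was 1137 bp. Only 8 asynchronous regions reached 1000 bp, and 7 protein-coding genes (0.0320%) held the midpoint of such a region.

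The remaining pair of Cdx2 regions was ordinary in width and nearer to other genes. A 248 bp region at chr5:147277391-147277638 lay 23.4 kb downstream of Cdx2 and 1.67 kb from Pdx1, a homeobox gene of the pancreas. A 243 bp region at chr5:147379516-147379758 lay 72.4 kb upstream, inside Flt3, a receptor tyrosine kinase gene of blood progenitors, with Urad in between. Both were narrower than the list's median. The 200 kb window held 5 regions, one of them on the promoter of the homeobox gene Gsx1 at 112 kb from Cdx2.

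Gata3, a zinc finger factor that acts in parallel with Cdx2 under TEAD4, had 2 regions, both with Gata3 as the nearest protein-coding gene. The wider, 382 bp at chr2:9882906-9883287, lay inside the RefSeq span (chr2:9857078-9887953), which extends beyond the start used in the promoter table, and its midpoint was 4.50 kb upstream of that start. It also lay inside the noncoding RNA genes 4930412O13Rik and 9230102O04Rik. The other, at chr2:9897131-9897313, was 183 bp wide, the smallest width in the asynchronous list, and lay 9.27 kb outside the span on the upstream side. No further region lay in the 100 kb window, which 1 other protein-coding gene reached.

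Tfap2c, which encodes the AP-2 gamma factor of trophoblast and germ cells, had the most regions, 7, a number that 0.800% of all protein-coding genes reach. Its density of 32.9 regions per Mb was matched or exceeded by 0.110% of all genes. The nearest, chr2:172544572-172545031, was 460 bp wide and lay 0.877 kb outside the lower-coordinate end of the gene (chr2:172545678-172558622). Regions of 228 and 508 bp followed on the same side at 24.5 and 28.9 kb (chr2:172521051-172521278 and chr2:172516533-172517040), with midpoints 4.38 kb apart. Still on that side, a 390 bp region lay 46.7 kb away in the noncoding gene Gm40009, and a 189 bp region 79.1 kb away inside Rtf2. On the other side, a 533 bp region at chr2:172577209-172577741 lay 18.9 kb away in the noncoding gene Gm36038, and a 246 bp region lay 55.3 kb away. Tfap2c was the nearest protein-coding gene for 5 of the 7. The set spread over 148 kb, and its median width, 390 bp, was above the 289 bp of the whole list.

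Gata2, a zinc finger factor of trophoblast and blood cells, had 1 asynchronous region, at chr6:88235865-88236319, and the only mitotic region of the 9 windows. The asynchronous region was 455 bp wide (percentile 86.5 of its list) and lay 29.1 kb downstream of the gene (chr6:88193891-88207032), nearer to Dnajb8, a chaperone gene, at 12.8 kb. A single region within 100 kb is what the median protein-coding gene had, and 44.5% of all genes had a density as high as the 4.69 per Mb of Gata2.

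The mitotic region, chr6:88255232-88255348, lay 48.3 kb downstream of Gata2, beyond Dnajb8, and 2.04 kb from Eefsec, a gene for a selenocysteine elongation factor. It was 117 bp wide, in a mitotic list with a median of 125 bp and a minimum of 105 bp, and 34 of the 84 mitotic regions were narrower. It did not overlap an asynchronous region: 18.9 kb separated it from the 455 bp region described above, the closest of the asynchronous list. Of the 9 genes, 1 thus had a mitotic region within 100 kb, where 1.41% of all protein-coding genes (309) had. Within 50 kb the count was also 1 (0.836% of all genes), within 200 kb again 1 (2.43%), and within 10 kb none of the 9 had a mitotic region (0.343%).

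The other 8 genes had no mitotic region within 100 kb or within 200 kb. A count of 0 among 84 regions allows a share of up to 3.57% of mitotic regions (3 counts), for counting error only. Their nearest mitotic regions lay at least 5.24 Mb away. The distance was 5.24 Mb for Gata3, 5.52 Mb for Tfap2c, 6.87 Mb for Id2, 7.10 Mb for Tead4, 9.58 Mb for Cdx2, 18.6 Mb for Elf5, 36.5 Mb for Hand1 and 48.5 Mb for Eomes. No mitotic counterpart was therefore listed for any of the 26 asynchronous regions, the 1186 bp region of Cdx2 included. With 84 mitotic regions against 10351 asynchronous ones, few asynchronous regions anywhere could have a counterpart. The absence is therefore not a trait of these 26, and the share over the whole list is not given here. With unknown depth and no value per region, a lower occupancy in mitosis at single genes was not detectable.

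Id2 encodes a helix-loop-helix protein without a DNA-binding region, which blocks partner factors and appears early in trophectoderm. It had 3 asynchronous regions. The nearest, 203 bp at chr12:25098860-25099062, lay 2.87 kb upstream of the gene (chr12:25093799-25096092). A 320 bp region lay 28.7 kb upstream at chr12:25124625-25124944, and a 184 bp region lay 24.5 kb downstream at chr12:25069180-25069363. The last was nearer to Kidins220, a membrane scaffold gene, at 6.12 kb. The density of 14.8 per Mb was close to that of Cdx2 (14.5 per Mb), but no Id2 region exceeded 320 bp.

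Eomes, the T-box factor of trophoblast stem cells and later of mesendoderm, had 5 regions, none within 50 kb of its span (chr9:118478186-118486132). Upstream, regions of 541, 241 and 195 bp lay 71.8, 73.1 and 88.1 kb away, and Eomes was their nearest protein-coding gene. The wider pair, chr9:118406098-118406638 and chr9:118404971-118405211, had midpoints 1.28 kb apart, the closest spacing among the 26, and both lay inside Platr11, a noncoding RNA gene. Downstream, a 666 bp region with 2 listed entries (chr9:118537610-118538275, percentile 98.2) lay 51.8 kb away and a 250 bp region 59.2 kb away, both inside Golga4, a Golgi protein gene. With 24.0 regions per Mb, Eomes was next to Tfap2c in density, and 0.991% of all genes were as dense.

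Elf5, an ETS factor that sustains trophoblast stem cells, had 1 asynchronous region, 313 bp wide at chr2:103348086-103348398. It lay 63.9 kb upstream of the gene (chr2:103412098-103450989), inside the noncoding gene A930006I01Rik, and 45.0 kb from Ehf, an ETS gene of the same family that was nearer to it. A further region lay just outside the limit, 101 kb upstream and 7.64 kb from Ehf. Ehf itself had 3 regions within 100 kb.

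Hand1, a helix-loop-helix factor of trophoblast giant cells, had 2 asynchronous regions, both on the lower-coordinate side of the gene (chr11:57828713-57832147). A 205 bp region at chr11:57813560-57813764 lay 15.1 kb from Hand1 and 3.05 kb from Sap30l. A 260 bp region at chr11:57774133-57774392 lay 54.5 kb away inside Galnt10, an enzyme gene of O-glycosylation. Both were narrower than the median of the list. Close to the 100 kb limit across the 9 genes, the region at 88.1 kb from Eomes was the last inside, and those at 101 kb from Elf5 and 107 kb from Hand1 were the first outside.

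The 26 regions were not wider than the list as a whole in their median, 255 bp (quartiles 227 and 439 bp) against 289 bp (226 and 381 bp). Their upper part was wider: 7 of 26 (26.9%) were at least 450 bp wide, against 14.0% of all asynchronous regions. The limit of 450 bp was chosen after the widths were seen. These 7 were 3 at Tfap2c, 2 at Eomes and 1 each at Cdx2 and Gata2. Width says how far a called region extends and not how strongly SOX2 bound there. More than 1 listed entry was found for 2 of the 26 and for 1.65% of all asynchronous regions. The nearest other asynchronous region lay at a median of 26.5 kb from the 26 and of 49.9 kb over the whole list. The 26 are pooled over genes, so Tfap2c (7 regions) and Eomes (5) weigh most in that median. The distance ran from 1.28 kb at Eomes to 198 kb at Gata2, so close spacing was not shared by all 9 genes.

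**Figure D4:**
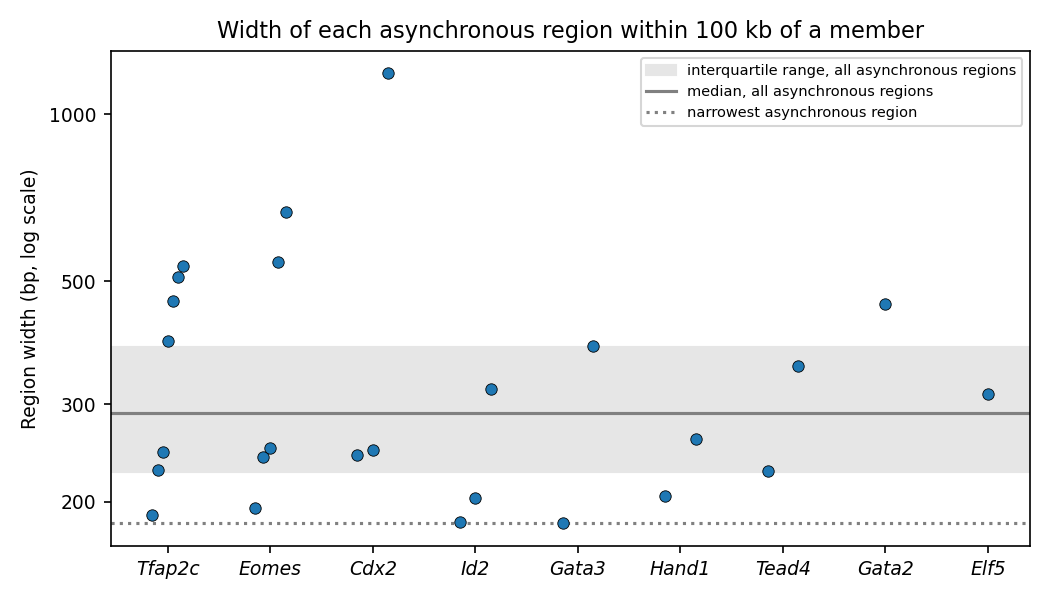
Width (vertical axis, bp, log scale) of each asynchronous region within 100 kb of the 9 genes, with the median (289 bp), the interquartile range (226 to 381 bp) and the minimum (183 bp) of the whole list. The Cdx2 region of 1186 bp stands alone, Tfap2c and Eomes mix wide and narrow regions, and both Hand1 regions lie under the median.

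The nearest gene was another for 12 of the 26 regions, 6 of which lay inside that other gene. Taking the nearest gene alone would leave 14 regions at 6 genes and none at Gata2, Elf5 and Hand1. None of the regions overlapped a promoter window of the RefSeq promoter table. That table has no window for Tfap2c, Tead4 and Hand1, so overlap with their own promoters could not be scored. The share of all asynchronous regions that overlap a window is not given here, so this count is a description only. The data hold no measure of which gene a region acts on.

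Families of these factors were counted in the same way. Of 21 relatives, 14 (66.7%) had an asynchronous region within 100 kb, near the 62.4% of all genes, with a median of 2. Within 10 kb, 10 of the 21 had one, as did 4 of the 9 trophectoderm genes and 23.8% of all genes. The relatives had a median of 9.20 regions per Mb of window, close to the 9.83 of the 9 genes (4.45 over all genes). A raised density was thus not particular to the trophectoderm genes. Tead1, a relative of Tead4, had 7 regions, all inside its span. Id4 and Gata1 had 5 each and Cdx4 had 3. Among the 7 without a region were Gata6, an endoderm factor, Tead3, and the T-box genes Tbr1 and Tbx21. The nearest region to Tbr1, a relative of Eomes, lay 141 kb away, and that to Tbx21, at 101 kb, was just outside the limit.

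In the Hippo pathway, upstream of TEAD4, 10 of 14 genes (71.4%) had a region within 100 kb, with a median of 1, near the 62.4% and the median of 1 of all protein-coding genes. Stk3, a core kinase, had 5, and Amotl2, which tethers YAP, Nf2, an activator of the pathway, and Mob1a, a kinase cofactor, had 3 each. Yap1 itself had none, the nearest region being 274 kb away, and Amot, Stk4 and Vgll4 had none either. Wwtr1, which encodes TAZ, the other coactivator of TEAD4, had 1 region, 67.5 kb away; it was named after its value was seen.

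All 12 genes of trophectoderm epithelium and signalling had a region within 100 kb, with a median of 2.5. Over all protein-coding genes the share was 62.4% and the median 1. The tight junction genes Tjp1 and Cldn6 had 4 each, and Cdh1, the epithelial cadherin, and Cldn4 had 3 each. The Cdh1 regions all lay inside the gene. Embryonic stem cells are also epithelial in character, and several genes of this list are not particular to trophectoderm.

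Among 17 later trophoblast genes, 12 (70.6%) had a region, with a median of 1, also near the values of all genes. Peg10, an imprinted placental gene, and Sox15 had 5 each, and Arid3a and Klf5 had 3 each. The placental hormone genes Prl3b1 and Prl3d1, the homeobox gene Rhox4b and the fusion gene Synb had none, nor did Tpbpa, a spongiotrophoblast marker named after its value was seen. Their nearest regions lay 311 to 1175 kb away, that of Tpbpa being the closest. All 6 pluripotency genes taken for reference had regions, with a median of 5, beside 62.4% and a median of 1 for all protein-coding genes. Pou5f1 and Nanog had 7 each, the number found for Tfap2c, Esrrb had 6, and Sox2 had 4. None of the genes in these 5 lists had a mitotic region within 100 kb, where 1.41% of all protein-coding genes had one. At so low a share, lists of this size would hold few such genes or none. Some genes share neighbourhoods, such as Elf5 with Ehf, and are not independent.

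**Figure D5:**
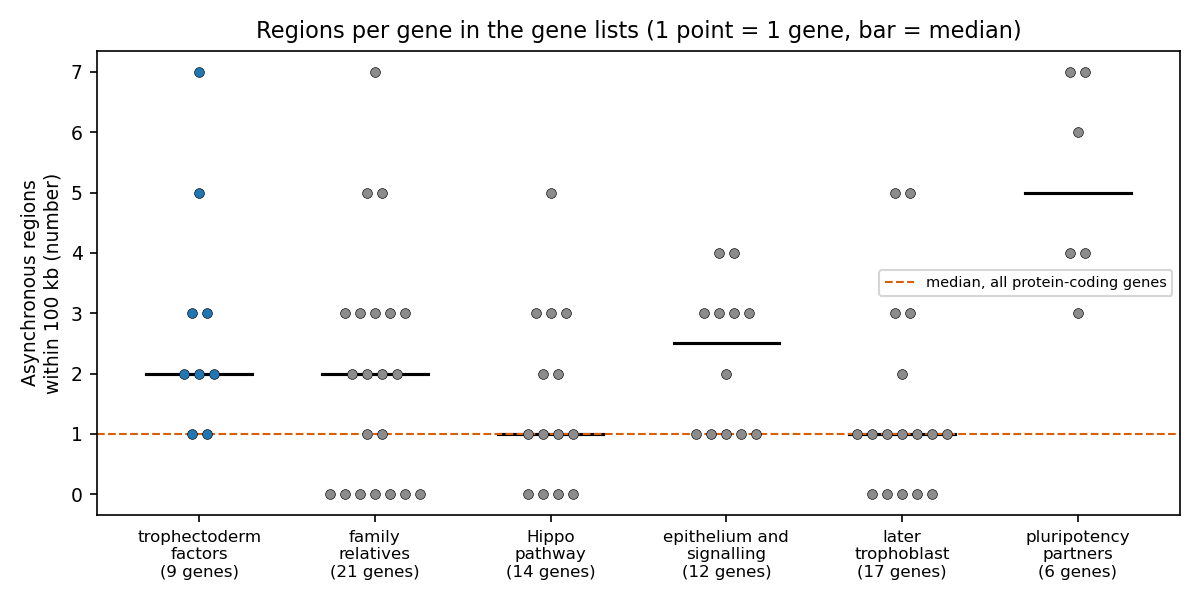
Asynchronous regions within 100 kb (vertical axis, number) for each gene of the trophectoderm factors and of 5 other gene lists; a point is a gene, the black bar the median of the list and the dashed line the median of all protein-coding genes (1). The trophectoderm factors lie between 1 and 7 with a median of 2, the pluripotency genes between 3 and 7.

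The peak names are numbered in order of position, and the numbers skip. In the mitotic list, 47 of the numbers up to 131 (35.9%) are missing, so its absences carry the same limit. Of the numbers up to 15590, 5239 (33.6%) are not in the asynchronous list used here, to which the counts below refer. Between regions of the same window, 1 number is skipped at Tfap2c and 1 at Tead4. Counting also the skips between a window and its flanking regions, at most 6 numbers fall in or beside the Gata2 window, 5 to Id2, 4 each to Gata3 and Elf5, 2 each to Cdx2, Tead4 and Eomes, 1 to Tfap2c and 0 to Hand1. The deposited names say that regions in a blacklist were left out, and whether this accounts for the skips was not tested. Why numbers are skipped is therefore not known, nor whether a skipped number stands for a SOX2 region. If each did, the count at Gata2 would be up to 7 and that at Hand1 would stay at 2.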

How the data were processed

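SOX2 ChIP and input libraries of asynchronous and mitotic E14 cells were deposited as 2 peak lists. Per the submitters' processing notes, Bowtie2 2.2.1, MACS2 and mm10 were used (MACS2 version: not given in the sources used here). The deposited names give ChIP against input, 3 replicates and regions outside a blacklist; as there is 1 list per condition, this is read as a call on pooled replicates. The deposited values are positions in bp, with no score or read count.

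Coordinates are given counting from 1. Entries with identical coordinates were merged, which removed 181 of the 10532 asynchronous entries and left 10351 regions. The mitotic list had no such entries. Gene spans (21887 protein-coding genes, 21 chromosomes) and promoters came from RefSeq GRCm38.p6. Counts, distances and motif matches were computed with Python 3.11.15, numpy 2.4.6 and pandas 2.3.3, and the counting was checked on simulated data. No test was made, since replicates have no values of their own.

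The 9 genes and the gene lists were chosen with earlier results of these data known. All 9 are described. Other genes are named if they are nearest to or between a gene and its region, or among up to 4 per list with the most regions and 4 with none. Gsx1, Wwtr1 and Tpbpa were named after their values were seen. Noncoding genes that hold a region were also added at that point. Alternatives were other distances (10, 50 and 200 kb), any overlap with the window, wider regions only, nearest gene only and unmerged entries.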

Additional observations from a re-analysis of the deposited data

How the results depend on the processing

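No paired analysis was possible because each condition has 1 list for its 3 replicates, and for the same reason no replicate could be left out in turn. The number of asynchronous regions near the 9 genes, 26, became 5 within 10 kb, 16 within 50 kb and 43 within 200 kb, 12 with regions wider than the median of their list, and 14 by nearest gene. The number of genes with a region, 9, fell to 4 within 10 kb, and was 6 by nearest gene, 7 within 50 kb and 8 with the wider regions. The share of all protein-coding genes with a region, 62.4%, was 23.8% within 10 kb, 40.2% with the wider regions and 24.7% by nearest gene. The mitotic count of 1 became 0 within 10 kb, with the wider regions and by nearest gene. These shifts follow from the settings, which take in less or more sequence or fewer regions. Any overlap with the window and unmerged entries gave 26 and 28 regions. Near the 9 genes, where only 1 of the 84 mitotic regions lay, no region was shared between the conditions. With none shared at the planned minimum of 1 bp, the stricter minimum could only give the same count. Of 63 recomputed counts for single genes, 34 stayed within 1.5 times. Within 50 kb, Eomes and Elf5 had no region, and the median width of the remaining regions, chosen as a further setting after seeing the data, was 336 bp in place of 255 bp (283 bp by nearest gene).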
